A study of Mus musculus with 8 samples.

Results

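A set of 45 genes that act in mitosis and in the passage from G2 into M phase was followed across sorted tumor cells from 4 groups of Myc-CaP tumors. They were taken by symbol, among the 39089 genes counted, as mitotic kinases and cyclins and as genes of the spindle, the kinetochore and cytokinesis. Myc-CaP is a prostate cancer line from a Myc-transgenic mouse. WT tumors grew from Myc-CaP cells carrying a control vector (EV in the sample labels), and *Arid1a* knockout tumors from Myc-CaP cells carrying a guide RNA against *Arid1a*, which encodes a subunit of SWI/SNF chromatin remodelers. The hosts were male FVB mice, given as 6 weeks old when the cells were placed under the skin. From day 16 they received JSH-23, dissolved in DMSO and diluted in corn oil, or corn oil as the vehicle, by gavage each day for 2 weeks. JSH-23 blocks the entry of the NF-κB subunit p65 into the nucleus. Each of the 4 groups (WT with vehicle, *Arid1a* knockout with vehicle, WT with JSH-23, *Arid1a* knockout with JSH-23) had 2 samples of EpCAM-positive, CD45-negative cells. The sources used here do not give the guide or clone behind the *Arid1a* knockout samples, nor how many tumors went into a sample.

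Cells enter mitosis when cyclin-dependent kinase 1, bound to cyclin B, is switched on by CDC25 phosphatases, and they leave it when the anaphase-promoting complex marks cyclin B and securin for destruction. Most genes of this program are transcribed late in the cell cycle, under the MuvB complex with B-Myb and FOXM1, through promoter elements known as the cell-cycle homology region (CHR) and the CCAAT box. Their RNA is therefore high in dividing cells and low in resting cells, and is widely read as a measure of proliferation in prostate and other tumors.

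The total counts ranged from 16401581 to 21972231 per sample. Levels are given as CPM, read counts scaled to library size with TMM factors. SE stands for the standard error of a log2 fold change. Levels of different genes are compared only as TPM, which takes gene length into account. *Arid1a* itself stood at 156 and 161 CPM in WT and 103 and 106 CPM in *Arid1a* knockout tumors with vehicle, and 144 and 155 CPM in WT and 93.8 and 95.9 CPM in *Arid1a* knockout tumors with JSH-23. Every *Arid1a* knockout sample lay below every WT sample, with a log2 fold change of -0.60 (SE 0.036, adjusted p = 1.39e-23, edgeR quasi-likelihood, Benjamini-Hochberg) with vehicle, a fall of 34.2% that left most of its RNA in place. The cells sorted for EpCAM had almost no *Epcam* RNA, at 0 and 0.0588 CPM in WT and 0 and 0.194 CPM in *Arid1a* knockout tumors with vehicle, and 0 and 0 CPM in WT and 0 and 0.048 CPM in *Arid1a* knockout tumors with JSH-23, or at most 4 counts in a sample. *Krt18* stayed at or below 18 counts, *Cdh1* at or below 19 and *Cldn7* at or below 5, while the keratins *Krt8* (32.8 to 113 CPM) and *Krt19* (11.6 to 104 CPM) were present. The 6 epithelial markers, led by *Krt8*, summed to 102 and 88.8 CPM in WT and 217 and 215 CPM in *Arid1a* knockout tumors with vehicle, and to 45.4 and 47.0 CPM in WT and 179 and 187 CPM in *Arid1a* knockout tumors with JSH-23. They were thus higher in *Arid1a* knockout samples and lower with JSH-23. Of genes of the prostate epithelium, *Hoxb13* was present (52.3 to 84.2 CPM), whereas *Pbsn* had 0 counts. Of 13 immune markers, 6 had 3 counts or fewer in every sample, and *Ptprc*, which encodes CD45, had at most 10 counts. The 13 summed to 19.8 and 21.0 CPM in WT and 20.2 and 22.5 CPM in *Arid1a* knockout tumors with vehicle, and to 19.2 and 10.3 CPM in WT and 13.0 and 10.1 CPM in *Arid1a* knockout tumors with JSH-23, with *Cd8a* and *Ly6g* at 0. By mean TPM the most abundant was *Lyz2* in both groups of WT tumors and *Cd68* in both groups of *Arid1a* knockout tumors. With vehicle, *Cd68* was higher in *Arid1a* knockout than in WT tumors (1.32) and *Lyz2* lower (-1.59). Without *Cd68* the list summed to 13.2 and 13.5 CPM in WT and 3.54 and 4.21 CPM in *Arid1a* knockout tumors with vehicle, and to 13.7 and 5.35 CPM in WT and 4.05 and 2.73 CPM in *Arid1a* knockout tumors with JSH-23. The 6 endothelial markers summed to at most 3.59 CPM and the 5 red blood cell markers to at most 13.6 CPM. By mean TPM they were led by *Pecam1* and *Hba-a1*. The 8 fibroblast markers, led by *Pdgfra*, summed to 61.8 and 67.9 CPM in WT and 67.0 and 67.4 CPM in *Arid1a* knockout tumors with vehicle, and to 64.9 and 63.3 CPM in WT and 45.6 and 43.7 CPM in *Arid1a* knockout tumors with JSH-23. Without *Pdgfra* they summed to 5.28 and 9.88 CPM in WT and 6.74 and 6.15 CPM in *Arid1a* knockout tumors with vehicle. With JSH-23 these sums were 10.7 and 10 CPM in WT and 7.51 and 5.23 CPM in *Arid1a* knockout tumors. The part of these marker differences in the results on mitotic genes was not tested.

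The 2 samples of a group were close to each other, and edgeR put their shared biological coefficient of variation at 1.61%, with a chi-square statistic of 1.46 to 1.57 for each degree of freedom over all genes. Nothing in the sources used here says that they came from separate mice, so the p-values measure only the spread between these samples, which may be technical. All 45 genes passed the filter on low counts that left 13921 genes tested. In bulk cells a change in the share of cells in mitosis and a change in RNA per cell cannot be told apart.

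On CPM, most of these genes were highest in *Arid1a* knockout tumors with JSH-23. The mean CPM was highest in that group for 36 of the 45 genes, but the mean TPM for 19, with 14 highest in *Arid1a* knockout tumors with vehicle. The mean CPM was lowest in *Arid1a* knockout tumors with vehicle for 24 genes and in WT tumors with JSH-23 for 17, and the mean TPM for 22 and 16. The most common order on CPM, in 19 genes and in 8 on TPM, ran from *Arid1a* knockout with vehicle through WT with vehicle and WT with JSH-23 to *Arid1a* knockout with JSH-23. The 45 genes together summed to 5450 and 5460 CPM in WT and 5120 and 5120 CPM in *Arid1a* knockout tumors with vehicle, and to 5520 and 5550 CPM in WT and 6870 and 6910 CPM in *Arid1a* knockout tumors with JSH-23. The samples of *Arid1a* knockout tumors with JSH-23 thus stood above all others, and those of *Arid1a* knockout tumors with vehicle below all others. The same held for summed TPM, at 4010 and 4000 in the former and 3400 and 3410 in the latter, beside 3730 to 3800 in the other 4 samples.

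With vehicle, *Arid1a* knockout tumors had lower levels of 18 of the 45 genes than WT tumors and higher levels of 11 (adjusted p under 0.05, edgeR quasi-likelihood, Benjamini-Hochberg), or 40% and 24.4%. Of all genes tested, 25.5% were lower and 25% higher. The median log2 fold change was -0.05, beside 0.00 over all genes. At the 1.5-fold change and unadjusted p under 0.05 of the study's methods, 4 were lower and 0 higher, beside 5.62% and 8.24% of all genes. With JSH-23, 36 of the 45 were higher in *Arid1a* knockout than in WT tumors, or 80%, beside 23.2% of all genes, and 0 were lower, beside 23.8%. In edgeR 1 was lower at an unadjusted p under 0.05 and 0 with DESeq2. The median was 0.26, beside -0.01 over all genes, and 2 passed the 1.5-fold criterion as higher and 0 as lower, beside 4.26% and 5.68%.

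JSH-23 had little net effect on the set in WT tumors, where 14 of the 45 genes were higher and 13 lower than with vehicle (31.1% and 28.9%), shares close to those of all genes (28.6% and 27.2%). The median was -0.01, as over all genes, and 0 genes passed the 1.5-fold criterion in either direction, beside 5.97% of all genes higher and 10.9% lower. In *Arid1a* knockout tumors JSH-23 raised 36 of the 45 (80%, beside 33.4% of all genes) and lowered 3 (6.67%, beside 34.4%), with a median of 0.35, beside -0.02 over all genes. There 15 were higher by the 1.5-fold criterion and 2 lower, beside 9.27% and 17.4% of all genes. The difference between the JSH-23 effects in *Arid1a* knockout and WT tumors, tested as an interaction, was positive for 37 genes and negative for 2, beside 20.5% and 17.9% of all genes, with a median of 0.37 beside 0.00. At a difference of 1.5-fold and unadjusted p under 0.05, 11 were positive and 0 negative, beside 3.93% and 7.01%. These comparisons share samples: the *Arid1a* knockout tumors with vehicle enter the vehicle comparison of genotypes, the JSH-23 effect in *Arid1a* knockout tumors and the interaction.

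The counts depend on how the libraries are scaled and on the spread assumed. On TPM values with limma the median of all genes shifted to -0.16 for *Arid1a* knockout against WT with JSH-23, to -0.20 for JSH-23 in *Arid1a* knockout tumors and to -0.17 for the interaction. Without TMM factors the latter 2 were at -0.13 and -0.11. Relative to the shifted median of all genes, the median of the 45 stood 0.23, 0.31 and 0.33 higher on TPM values. On that scale 20 genes were higher and 6 lower in *Arid1a* knockout than in WT tumors with JSH-23, while over all genes 1252 were higher and 5793 lower, in place of 3229 and 3307. JSH-23 in *Arid1a* knockout tumors then raised 23 and lowered 11 of the set, and 2320 and 6878 of all genes in place of 4651 and 4791. Without TMM factors 31 of the set were higher and 7 lower, with 3580 and 5913 of all genes. For the interaction 22 of the set were positive and 3 negative on TPM values, with 1040 and 4536 of all genes in place of 2851 and 2495, and without TMM factors 29 and 2, with 1854 and 3750. Of the genes called on counts, 24 of 29 kept their direction and call on TPM values for *Arid1a* knockout against WT with vehicle and 24 of 27 for JSH-23 in WT tumors. With JSH-23, 20 of the 36 genes that differed between genotypes did so, while 8 lost the call (*Ccnb2*, *Cdc25c*, *Bub1b*, *Cenpa*, *Kif4*, *Espl1*, *Smc4* and *Foxm1*) and 8 turned in direction (*Plk1*, *Nek2*, *Bub3*, *Ndc80*, *Kif20a*, *Cdc20*, *Ube2c* and *Ncaph*). For JSH-23 in *Arid1a* knockout tumors 26 of 39 kept both, 7 lost the call (*Ccna2*, *Bub1*, *Bub3*, *Ttk*, *Cenpe*, *Cdca8* and *Kif2c*) and 6 turned (*Cdk1*, *Ndc80*, *Aurkb*, *Kif4*, *Kif23* and *Racgap1*). For the interaction 24 of 39 kept both, 11 lost the call (*Cdk1*, *Nek2*, *Bub3*, *Ttk*, *Aurkb*, *Birc5*, *Cdca8*, *Kif11*, *Kif2c*, *Racgap1* and *Pttg1*) and 4 turned (*Kif4*, *Kif23*, *Espl1* and *Mki67*). Fewer genes were called when a larger spread was preset. With the biological coefficient of variation set to 0.1 in edgeR (likelihood-ratio test), 4 of the 45 were higher and 8 lower in *Arid1a* knockout than in WT tumors with vehicle, and 11 were higher with JSH-23. JSH-23 raised 1 and lowered 2 in WT tumors and raised 23 and lowered 2 in *Arid1a* knockout tumors, and the interaction was positive for 11. Of all 13921 genes, 1563 were then higher and 1306 lower between genotypes with vehicle, and 845 and 1049 with JSH-23. JSH-23 raised 1585 and lowered 2042 in WT tumors and raised 2670 and lowered 3348 in *Arid1a* knockout tumors. The interaction was positive for 252 and negative for 495. At 0.2, JSH-23 raised 9 in *Arid1a* knockout tumors, and 1 gene was lower in *Arid1a* knockout than in WT tumors with vehicle. The calls in the other 3 comparisons were then 0. Of all genes at 0.2, JSH-23 raised 566 and lowered 1578 in *Arid1a* knockout tumors, and 397 were higher and 217 lower between genotypes with vehicle. In the other comparisons 124 were higher and 134 lower (genotypes with JSH-23), 205 and 604 (JSH-23 in WT), and 13 and 34 (interaction). At an unadjusted p under 0.05 in edgeR there were 3 genotype differences with JSH-23, 4 interactions and 0 JSH-23 effects in WT tumors. DESeq2, which was not run with a preset spread, called 32 higher with JSH-23, gave an interaction that was positive for 34 and negative for 1, and had 11 raised and 11 lowered in WT tumors.

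**Figure D1:**
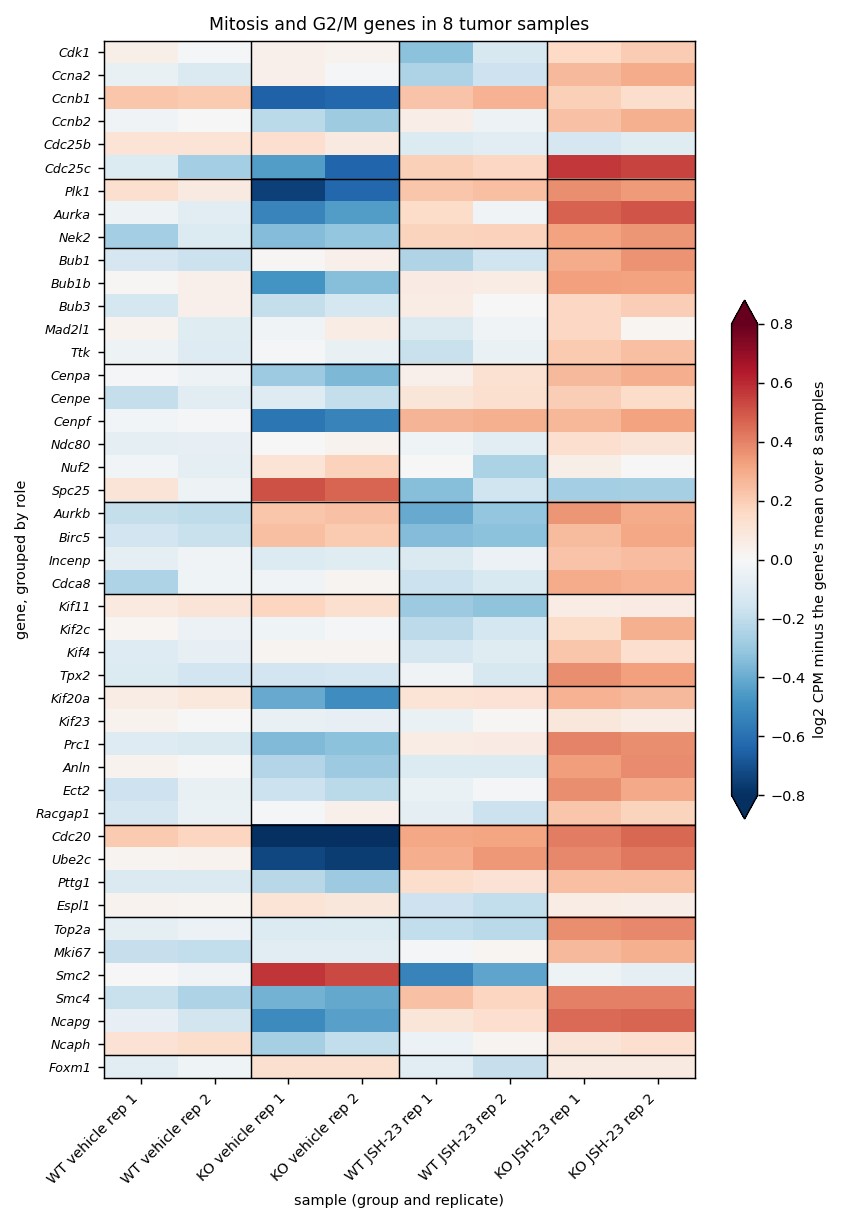
Level of each of the 45 genes (rows, grouped by role) in each of the 8 samples (columns, 2 per group), as log2 CPM minus the gene's mean over the 8 samples. The columns of *Arid1a* knockout tumors with JSH-23 are on average the highest of the 4 groups for 36 genes on this scale (19 on mean TPM), and *Cdc20*, *Ube2c*, *Plk1* and *Ccnb1* are lowest in *Arid1a* knockout tumors with vehicle.

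Of CDK1 and its activators, the cyclin B genes were lowest in *Arid1a* knockout tumors with vehicle. *Ccnb1*, which encodes the main cyclin partner of CDK1 in mitosis, stood at 98.6 and 97.9 CPM in WT and 54.1 and 54.6 CPM in *Arid1a* knockout tumors with vehicle, and 99.1 and 103 CPM in WT and 96.3 and 93.3 CPM in *Arid1a* knockout tumors with JSH-23. Only the *Arid1a* knockout tumors with vehicle lay apart, below the samples of the other groups. The log2 fold change between genotypes was -0.85 (SE 0.045, adjusted p = 1.2e-26, edgeR quasi-likelihood, Benjamini-Hochberg) with vehicle and -0.09 with JSH-23, where it did not pass the test on counts but passed as lower on TPM values (-0.28) and without TMM factors (-0.17). JSH-23 raised it by 0.80 in *Arid1a* knockout tumors and changed it by 0.04 in WT tumors (0.00 on TPM values), which did not pass, and the interaction was 0.76 (SE 0.061, adjusted p = 1.59e-17, edgeR quasi-likelihood, Benjamini-Hochberg). *Ccnb2*, a cyclin B of the Golgi, was at 77.1 and 78.8 CPM in WT and 67.8 and 64.7 CPM in *Arid1a* knockout tumors with vehicle, and 81.5 and 76.5 CPM in WT and 92.5 and 95.9 CPM in *Arid1a* knockout tumors with JSH-23. Its mean TPM of 123 was the highest of the 6 genes in this group. *Arid1a* knockout samples were below WT samples with vehicle (-0.24) and above them with JSH-23 (0.25, but 0.06 with the call lost on TPM values). *Ccna2*, the cyclin A that serves both S phase and early mitosis, followed another course, with 129 and 124 CPM in WT and 138 and 134 CPM in *Arid1a* knockout tumors with vehicle, and 114 and 120 CPM in WT and 161 and 165 CPM in *Arid1a* knockout tumors with JSH-23. It was higher in *Arid1a* knockout tumors under either treatment, by 0.11 with vehicle and by 0.48 (SE 0.035, adjusted p = 7.29e-20, edgeR quasi-likelihood, Benjamini-Hochberg) with JSH-23. The call with vehicle was lost with DESeq2, and without the second WT or the first *Arid1a* knockout sample. *Cdc25c*, a phosphatase that activates CDK1, was at 24.6 and 22 CPM in WT and 19.5 and 17.1 CPM in *Arid1a* knockout tumors with vehicle, and 30.4 and 29.8 CPM in WT and 39.2 and 38.7 CPM in *Arid1a* knockout tumors with JSH-23. JSH-23 raised it in both genotypes, by 0.37 in WT and by 1.09 (SE 0.077, adjusted p = 1.3e-20, edgeR quasi-likelihood, Benjamini-Hochberg) in *Arid1a* knockout tumors, and vehicle and JSH-23 samples did not overlap in either genotype. *Cdk1* itself differed between genotypes with JSH-23 (0.41) and not detectably with vehicle (0.02). JSH-23 lowered it in WT tumors (-0.24) and raised it in *Arid1a* knockout tumors (0.15, but -0.09 on TPM values). The phosphatase gene *Cdc25b* was lower with JSH-23 in both genotypes (-0.21 in WT and -0.22 in *Arid1a* knockout tumors).

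The mitotic kinase genes *Plk1* and *Aurka* were lower in *Arid1a* knockout than in WT tumors with vehicle, and they and *Nek2* rose with JSH-23 in *Arid1a* knockout tumors. *Plk1*, a kinase needed for spindle assembly and mitotic exit, stood at 55.8 and 53.7 CPM in WT and 30.4 and 33.1 CPM in *Arid1a* knockout tumors with vehicle, and 59.6 and 60.4 CPM in WT and 66.1 and 64.6 CPM in *Arid1a* knockout tumors with JSH-23. The *Arid1a* knockout samples with vehicle were the lowest of all. The difference from WT was -0.78 (SE 0.061, adjusted p = 2.21e-18, edgeR quasi-likelihood, Benjamini-Hochberg), JSH-23 raised *Plk1* by 1.04 in *Arid1a* knockout tumors, and the interaction was 0.90 (SE 0.08, adjusted p = 1.63e-15, edgeR quasi-likelihood, Benjamini-Hochberg). With JSH-23 the genotypes differed by 0.12, a call lost without any 1 of the 4 samples compared and a direction that turned to -0.07 on TPM values. *Aurka*, the centrosomal Aurora kinase, was at 60.9 and 59.1 CPM in WT and 43.4 and 46.1 CPM in *Arid1a* knockout tumors with vehicle, and 69.5 and 61.5 CPM in WT and 87 and 88.9 CPM in *Arid1a* knockout tumors with JSH-23. Its genotype difference changed sign with the treatment, from -0.42 with vehicle to 0.42 (SE 0.049, adjusted p = 1.85e-11, edgeR quasi-likelihood, Benjamini-Hochberg) with JSH-23. JSH-23 raised it by 0.97 in *Arid1a* knockout tumors, and by 0.13 in WT tumors, where the call was lost on TPM values and without the second vehicle or the first JSH-23 sample. *Nek2*, a kinase that separates centrosomes, was at 48.3 and 54.2 CPM in WT and 46 and 47.1 CPM in *Arid1a* knockout tumors with vehicle, and 65.9 and 66.3 CPM in WT and 72.9 and 74.5 CPM in *Arid1a* knockout tumors with JSH-23. Here JSH-23 samples were above vehicle samples in WT (0.37, SE 0.055, adjusted p = 2.53e-08, edgeR quasi-likelihood, Benjamini-Hochberg) and in *Arid1a* knockout tumors (0.66), while the genotypes differed by -0.14 with vehicle. That call held in 7 of the 19 alternatives. It was lost with DESeq2, on TPM values, without TMM factors, and without the second WT or either *Arid1a* knockout sample.

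Of 5 spindle assembly checkpoint genes, JSH-23 raised 4 in *Arid1a* knockout tumors (80%, beside 33.4% of all genes). Of these, *Bub1b* alone kept the call on TPM values, where *Bub1* was at 0.06, *Bub3* at 0.11 and *Ttk* at 0.02. In WT tumors 0 passed the test in edgeR, beside 28.6% of all genes higher and 27.2% lower. At an unadjusted p under 0.05 the count was also 0, as it was with DESeq2. *Bub1b*, whose product BubR1 restrains the anaphase-promoting complex, was at 155 and 158 CPM in WT and 111 and 121 CPM in *Arid1a* knockout tumors with vehicle, and 161 and 160 CPM in WT and 193 and 193 CPM in *Arid1a* knockout tumors with JSH-23. The *Arid1a* knockout samples were the lowest with vehicle and the highest with JSH-23, with differences from WT of -0.43 and 0.26 (the latter 0.07 with the call lost on TPM values) and an interaction of 0.69 (SE 0.048, adjusted p = 1.9e-20, edgeR quasi-likelihood, Benjamini-Hochberg). *Bub1*, the kinase that recruits checkpoint proteins to kinetochores, was at 147 and 143 CPM in WT and 162 and 166 CPM in *Arid1a* knockout tumors with vehicle, and 136 and 144 CPM in WT and 197 and 206 CPM in *Arid1a* knockout tumors with JSH-23. *Arid1a* knockout samples lay above WT samples under either treatment, by 0.18 with vehicle and 0.53 (SE 0.032, adjusted p = 2.13e-23, edgeR quasi-likelihood, Benjamini-Hochberg) with JSH-23. The checkpoint kinase gene *Ttk* was higher in *Arid1a* knockout tumors with JSH-23 (0.34), as was *Bub3*, which holds BUB1 and BubR1 at the kinetochore, by 0.15, though by -0.04 on TPM values. *Mad2l1*, whose product binds and blocks CDC20, passed in none of the 5 comparisons, with log2 fold changes between -0.04 and 0.16 and 517 to 701 counts.

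The centromere and kinetochore genes did not move together. *Cenpa*, the histone H3 variant of centromeres, was at 87.4 and 85.6 CPM in WT and 72 and 68.7 CPM in *Arid1a* knockout tumors with vehicle, and 90.6 and 95.9 CPM in WT and 105 and 108 CPM in *Arid1a* knockout tumors with JSH-23. It was lower in *Arid1a* knockout tumors with vehicle (-0.30) and higher with JSH-23 (0.20, but 0.00 with the call lost on TPM values), and JSH-23 raised it by 0.60 (SE 0.042, adjusted p = 4.68e-21, edgeR quasi-likelihood, Benjamini-Hochberg) in *Arid1a* knockout tumors. *Cenpf*, a large kinetochore protein of G2 and M phase, had a similar fall with vehicle (-0.54) and rise with JSH-23 in *Arid1a* knockout tumors (0.85), and rose in WT tumors as well (0.29). The motor gene *Cenpe* rose with JSH-23 by 0.25 in WT and 0.32 in *Arid1a* knockout tumors, the latter 0.08 with the call lost on TPM values. Subunits of the NDC80 complex, which binds microtubules, went other ways: *Ndc80* changed by 0.10 with JSH-23 in *Arid1a* knockout tumors (-0.13 on TPM values), *Nuf2* by -0.13, which did not pass (-0.35 and called lower on TPM values), and *Spc25* fell by 0.76. *Spc25*, singled out after its values were seen, stood at 25.2 and 22.8 CPM in WT and 33.3 and 32.4 CPM in *Arid1a* knockout tumors with vehicle, and 18.5 and 20.9 CPM in WT and 19.4 and 19.4 CPM in *Arid1a* knockout tumors with JSH-23. Its samples were highest in *Arid1a* knockout tumors with vehicle, where it differed from WT by 0.45, and JSH-23 changed it by -0.76 (SE 0.08, adjusted p = 3.36e-13, edgeR quasi-likelihood, Benjamini-Hochberg) in *Arid1a* knockout and by -0.29 in WT tumors, the latter a call lost without the first vehicle or the first JSH-23 sample. The interaction was -0.47.

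Genes of the chromosomal passenger complex, which corrects wrong attachments of chromosomes to the spindle, included the largest genotype differences of the set with JSH-23. *Aurkb*, its kinase, was at 82.3 and 81.8 CPM in WT and 110 and 110 CPM in *Arid1a* knockout tumors with vehicle, and 71 and 76 CPM in WT and 120 and 115 CPM in *Arid1a* knockout tumors with JSH-23. *Birc5*, which encodes survivin, was at 70.5 and 69.2 CPM in WT and 92.5 and 90.6 CPM in *Arid1a* knockout tumors with vehicle, and 61.7 and 62.4 CPM in WT and 93.3 and 96.9 CPM in *Arid1a* knockout tumors with JSH-23. For both genes every *Arid1a* knockout sample lay above every WT sample. The differences were 0.42 and 0.39 with vehicle, and 0.68 (SE 0.041, adjusted p = 1.77e-23, edgeR quasi-likelihood, Benjamini-Hochberg) and 0.62 (SE 0.045, adjusted p = 1.1e-19, edgeR quasi-likelihood, Benjamini-Hochberg) with JSH-23. Both fell with JSH-23 in WT tumors, *Aurkb* by 0.16 (a call lost without the first JSH-23 sample) and *Birc5* by 0.17. In *Arid1a* knockout tumors the direction of their JSH-23 effect depended on scaling, with 0.10 for *Aurkb* (-0.14 on TPM values, and a call lost without the first vehicle or the first JSH-23 sample) and 0.06 for *Birc5*, which did not pass (-0.18 and called lower on TPM values). The scaffold gene *Incenp* and *Cdca8*, which encodes borealin, were higher in *Arid1a* knockout than in WT tumors with JSH-23, by 0.32 and 0.43.

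Among spindle motors and assembly factors, all 4 genes were higher in *Arid1a* knockout than in WT tumors with JSH-23 (100%, beside 23.2% of all genes). *Tpx2*, which activates Aurora A on the spindle, was at 140 and 135 CPM in WT and 135 and 137 CPM in *Arid1a* knockout tumors with vehicle, and 148 and 138 CPM in WT and 195 and 189 CPM in *Arid1a* knockout tumors with JSH-23. Only the *Arid1a* knockout samples with JSH-23 stood apart, above all others, with a rise of 0.49 (SE 0.032, adjusted p = 2.45e-22, edgeR quasi-likelihood, Benjamini-Hochberg) against vehicle. *Kif11*, the motor that pushes spindle poles apart, was at 85.1 and 86.3 CPM in WT and 90.9 and 88.1 CPM in *Arid1a* knockout tumors with vehicle, and 65.9 and 64.6 CPM in WT and 84 and 84.3 CPM in *Arid1a* knockout tumors with JSH-23. Here it was the WT samples with JSH-23 that stood apart, below all others, with a change of -0.39 (SE 0.046, adjusted p = 2.01e-11, edgeR quasi-likelihood, Benjamini-Hochberg) against vehicle. That holds on CPM. On TPM values *Kif11* also fell with JSH-23 in *Arid1a* knockout tumors (-0.32 and called, beside -0.09 and not called on counts), and its interaction of 0.31 was 0.11 with the call lost. *Kif2c*, a microtubule depolymerase, and the chromokinesin *Kif4* were higher in *Arid1a* knockout than in WT tumors with JSH-23, by 0.40 and 0.29, the latter 0.10 with the call lost on TPM values.

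All 6 central spindle and cytokinesis genes rose with JSH-23 in *Arid1a* knockout tumors (100%, beside 33.4% of all genes). On TPM values, however, *Kif23* and *Racgap1* turned to -0.10 and -0.05. *Racgap1*, which with the motor *Kif23* forms the centralspindlin complex, was at 173 and 183 CPM in WT and 189 and 196 CPM in *Arid1a* knockout tumors with vehicle, and 181 and 169 CPM in WT and 223 and 216 CPM in *Arid1a* knockout tumors with JSH-23. On CPM the *Arid1a* knockout samples with JSH-23 were highest, with 0.32 (SE 0.031, adjusted p = 1.99e-14, edgeR quasi-likelihood, Benjamini-Hochberg) relative to WT and 0.18 relative to vehicle. On TPM values the difference from WT was 0.13. The mean TPM of *Racgap1* was highest in *Arid1a* knockout tumors with vehicle (159, beside 154 with JSH-23). *Anln*, the actin-binding scaffold of the cleavage furrow, changed by -0.28 between genotypes with vehicle and by 0.46 with JSH-23, with an interaction of 0.74 (SE 0.033, adjusted p = 1.3e-30, edgeR quasi-likelihood, Benjamini-Hochberg). *Kif20a*, a motor of the midzone, and *Prc1*, which bundles its microtubules, were lower in *Arid1a* knockout tumors with vehicle (-0.52 and -0.23) and rose by 0.72 each with JSH-23 in *Arid1a* knockout tumors. *Ect2*, which activates RhoA for cleavage, rose there by 0.53 and *Kif23* by 0.14.

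Over the 5 comparisons the largest changes of the set were in genes of the anaphase-promoting complex, all where *Arid1a* knockout tumors with vehicle entered. *Cdc20*, its activator in mitosis, stood at 109 and 106 CPM in WT and 49.7 and 48.8 CPM in *Arid1a* knockout tumors with vehicle, and 117 and 117 CPM in WT and 125 and 129 CPM in *Arid1a* knockout tumors with JSH-23. *Arid1a* knockout samples with vehicle were well below the other 6 samples, which lay between 106 and 129 CPM. The genotypes differed by -1.13 (SE 0.044, adjusted p = 8.53e-34, edgeR quasi-likelihood, Benjamini-Hochberg) with vehicle. JSH-23 changed *Cdc20* by 1.37 (SE 0.042, adjusted p = 1.64e-40, edgeR quasi-likelihood, Benjamini-Hochberg) in *Arid1a* knockout tumors and by 0.12 in WT tumors, a call lost without the second vehicle sample. The interaction was 1.25 (SE 0.058, adjusted p = 2.23e-29, edgeR quasi-likelihood, Benjamini-Hochberg). *Ube2c*, the ubiquitin-conjugating enzyme that works with the complex, was at 113 and 113 CPM in WT and 67.1 and 65.5 CPM in *Arid1a* knockout tumors with vehicle, and 136 and 141 CPM in WT and 145 and 149 CPM in *Arid1a* knockout tumors with JSH-23. It followed *Cdc20*, with -0.77 between genotypes with vehicle and JSH-23 effects of 1.15 in *Arid1a* knockout and 0.29 in WT tumors. With JSH-23 both genes were slightly higher in *Arid1a* knockout than in WT tumors (0.12 and 0.09), but lower on TPM values (-0.07 and -0.11). Both calls were lost without the second *Arid1a* knockout sample with JSH-23, and that of *Ube2c* also without the first WT sample with JSH-23. *Pttg1*, which encodes securin, rose with JSH-23 in both genotypes (0.25 and 0.50). *Espl1*, the separase that cuts cohesin, fell with JSH-23 in WT tumors (-0.20) and did not pass in *Arid1a* knockout tumors (-0.04), where it was -0.27 and called lower on TPM values.

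Genes of mitotic chromosome structure held the most abundant of the 45, *Top2a*, with a mean TPM of 354 beside 298 for *Ube2c* and 23.1 for *Kif4*, the lowest. *Top2a*, the topoisomerase that untangles sister chromatids, was at 723 and 740 CPM in WT and 708 and 708 CPM in *Arid1a* knockout tumors with vehicle, and 666 and 657 CPM in WT and 987 and 995 CPM in *Arid1a* knockout tumors with JSH-23. The samples of *Arid1a* knockout tumors with JSH-23 stood apart as the highest, with 0.58 (SE 0.017, adjusted p = 8.54e-41, edgeR quasi-likelihood, Benjamini-Hochberg) relative to WT. *Smc2* and *Smc4*, the ATPase pair of condensin, had opposite JSH-23 effects. *Smc2* was at 112 and 110 CPM in WT and 167 and 162 CPM in *Arid1a* knockout tumors with vehicle, and 77.6 and 83.9 CPM in WT and 109 and 106 CPM in *Arid1a* knockout tumors with JSH-23. *Smc4* was at 243 and 231 CPM in WT and 211 and 207 CPM in *Arid1a* knockout tumors with vehicle, and 323 and 310 CPM in WT and 363 and 363 CPM in *Arid1a* knockout tumors with JSH-23. JSH-23 samples were below vehicle samples for *Smc2* in WT (-0.46, SE 0.041, adjusted p = 8.58e-16, edgeR quasi-likelihood, Benjamini-Hochberg) and in *Arid1a* knockout tumors (-0.61), and above them for *Smc4* (0.80 in *Arid1a* knockout tumors and 0.42 (SE 0.026, adjusted p = 1.1e-22, edgeR quasi-likelihood, Benjamini-Hochberg) in WT tumors). With vehicle, *Arid1a* knockout tumors had more *Smc2* than WT tumors (0.56, SE 0.036, adjusted p = 1.89e-22, edgeR quasi-likelihood, Benjamini-Hochberg) and less *Smc4* (-0.18). With JSH-23 they had more of both (0.42 for *Smc2* and 0.20 for *Smc4*, the latter 0.01 and not called on TPM values). The interaction for *Smc2* was -0.15, a call lost with DESeq2. It was also lost without the second WT vehicle, the second WT JSH-23, the first *Arid1a* knockout vehicle or the second *Arid1a* knockout JSH-23 sample. The condensin subunits *Ncapg* and *Ncaph* were lower in *Arid1a* knockout tumors with vehicle (-0.36 and -0.36), and rose with JSH-23 in *Arid1a* knockout tumors by 0.93 and 0.35. *Mki67*, which encodes the proliferation marker Ki-67, was higher in *Arid1a* knockout tumors under either treatment (0.10 and 0.27) and rose with JSH-23 in both genotypes (0.19 in WT and 0.36 in *Arid1a* knockout tumors). On TPM values its genotype difference with JSH-23 was 0.08 and its rise in *Arid1a* knockout tumors 0.12, both still called.

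*Foxm1*, the transcription factor that drives many of these genes in G2, did not follow them. It was at 68.6 and 70.9 CPM in WT and 79.4 and 79.5 CPM in *Arid1a* knockout tumors with vehicle, and 68.2 and 63.8 CPM in WT and 76.3 and 76.3 CPM in *Arid1a* knockout tumors with JSH-23. *Arid1a* knockout samples were above WT samples under either treatment, by 0.19 with vehicle and 0.21 (SE 0.047, adjusted p = 0.000153, edgeR quasi-likelihood, Benjamini-Hochberg) with JSH-23, though on TPM values the latter was 0.02 and lost its call. The JSH-23 effects of -0.08 in WT and -0.06 in *Arid1a* knockout tumors did not pass the test on counts, but passed as lower on TPM values (-0.12 and -0.29). The interaction of 0.02 did not pass (-0.17 on TPM values).

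**Figure D2:**
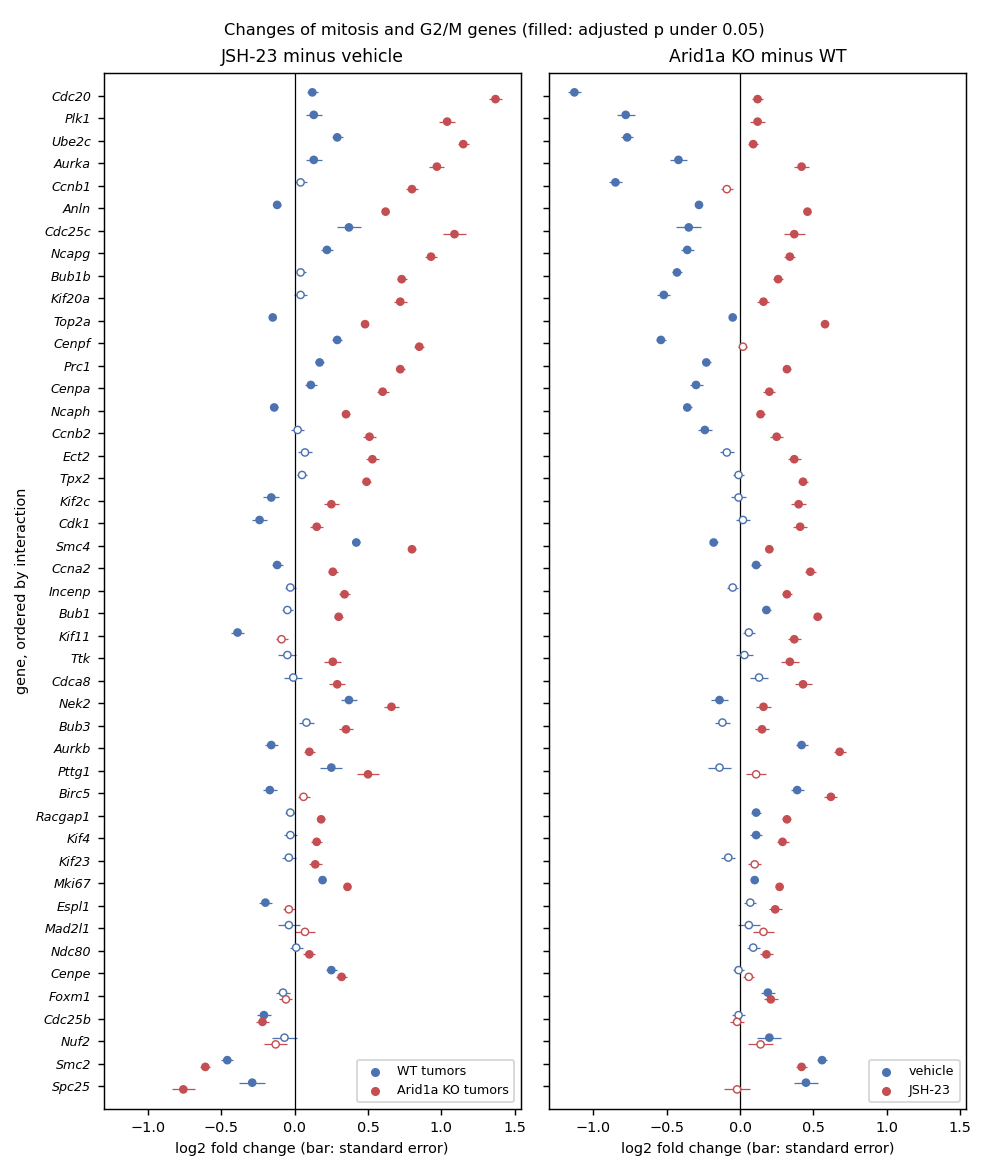
Log2 fold change of each of the 45 genes (rows, ordered by the interaction) for JSH-23 minus vehicle in WT and *Arid1a* knockout tumors (left) and for *Arid1a* knockout minus WT with vehicle and with JSH-23 (right). Points are edgeR estimates from 2 samples a group, bars are standard errors, and filled points passed an adjusted p under 0.05; *Cdc20* has the largest JSH-23 effect in *Arid1a* knockout tumors (1.37) and *Spc25* the most negative (-0.76).

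Further genes of mitosis were read outside the 45. Of 108 other mitotic genes tested, 40 were higher and 37 lower in *Arid1a* knockout than in WT tumors with vehicle, and 65 and 9 with JSH-23. JSH-23 raised 25 and lowered 43 in WT tumors, and raised 51 and lowered 34 in *Arid1a* knockout tumors, with an interaction that was positive for 53 and negative for 7. The shares higher and lower were 37% and 34.3% between genotypes with vehicle, beside 25% and 25.5% of all genes, and 60.2% and 8.33% with JSH-23, beside 23.2% and 23.8%. For JSH-23 they were 23.1% and 39.8% in WT tumors, beside 28.6% and 27.2%, and 47.2% and 31.5% in *Arid1a* knockout tumors, beside 33.4% and 34.4%. For the interaction they were 49.1% and 6.48%, beside 20.5% and 17.9%. Their median log2 fold changes were 0.01, 0.20, -0.07, 0.08 and 0.15 in these 5 comparisons, beside 0.00, -0.01, -0.01, -0.02 and 0.00 over all genes. On TPM values 31 were higher and 26 lower in *Arid1a* knockout tumors with JSH-23, JSH-23 raised 27 and lowered 52 in *Arid1a* knockout tumors (median -0.16), and the interaction was positive for 17 and negative for 22 (median -0.04). Over all 13921 genes on TPM values, 1252 were higher and 5793 lower in *Arid1a* knockout tumors with JSH-23 (median -0.16). There JSH-23 raised 2320 and lowered 6878 in *Arid1a* knockout tumors (median -0.20), and the interaction was positive for 1040 and negative for 4536 (median -0.17). The directions thus depend on scaling, while the medians of the 108 genes stayed above those of all genes. In *Arid1a* knockout tumors JSH-23 raised *Sgo2a*, a protector of centromeric cohesion (1.13), the spindle protein gene *Troap* (1.03) and *Ckap5*, a microtubule polymerase (0.82). The kinetochore genes *Zwint* (-1.02) and *Dsn1* (-1.02) and *Ccnf*, which encodes cyclin F (-0.99), were lowered. In WT tumors the mean CPM with vehicle and JSH-23 moved the same way for *Zwint* (102 and 66), *Dsn1* (31.9 and 20.3), *Sgo2a* (47.6 and 64.2) and *Ckap5* (211 and 288). *Spc24*, whose product pairs with SPC25, fell in WT tumors with JSH-23 (-1.05) together with *Ccnf* (-0.90) and *Pimreg* (-0.82). *Depdc1a* (0.66) and the histone kinase gene *Haspin* (0.60) rose there, as did *Troap* and *Bora*, which encodes an activator of PLK1 (0.53 each). In *Arid1a* knockout tumors the mean CPM with vehicle and JSH-23 was 47.8 and 28.4 for *Spc24*, 40.6 and 37.6 for *Pimreg*, 12.8 and 20.9 for *Depdc1a*, and 14.4 and 13.6 for *Haspin*. Between genotypes, *Esco2* (0.78), *Haspin* (0.74) and *Mis12* (0.74) were higher and *Depdc1b* (-0.70), *Aspm* (-0.63) and *Cenpc1* (-0.54) lower in *Arid1a* knockout tumors with vehicle. With JSH-23, *Spc24* (1.03), *Pmf1* (0.82) and *Nsl1* (0.75), all of the kinetochore, were higher and *Kif2a* (-0.49), *Nek9* (-0.28) and *Pds5b* (-0.25) lower. The most positive interactions were those of *Pimreg* (0.70), *Sgo2a* (0.69) and *Anapc13* (0.62), and the most negative those of *Haspin* (-0.68), *Cenpk* (-0.62) and *Mis12* (-0.41).

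Regulators that act on mitotic promoters were more often lowered than raised by JSH-23 in *Arid1a* knockout tumors. Of 22, JSH-23 raised 5 and lowered 12 there (median -0.23), or 22.7% and 54.5%, beside 33.4% and 34.4% of all genes. In WT tumors it raised 7 and lowered 7 (median 0.03), or 31.8% and 31.8%, close to the 28.6% and 27.2% of all genes. *Mybl2*, which encodes B-Myb, fell by 0.73 in *Arid1a* knockout and by 0.60 in WT tumors, and the repressors *E2f7* (-1.27) and *E2f8* (-1.55) fell in *Arid1a* knockout tumors. The MuvB subunit gene *Lin52* rose in both (1.27 in WT and 0.93 in *Arid1a* knockout tumors), as did *Lin37* (0.49 and 0.54), and *E2f5* rose in *Arid1a* knockout tumors (0.91). In WT tumors *Rb1* rose (0.43) and *E2f7* (-0.78) and *Rbl1* (-0.57) fell. The mean CPM with vehicle and JSH-23 in *Arid1a* knockout tumors was 45.7 and 52.4 for *Rb1* and 74.7 and 50.4 for *Rbl1*. In WT tumors it was 13.2 and 16.7 for *E2f5* and 22.6 and 15.7 for *E2f8*. With vehicle 13 of the 22 were higher and 2 lower in *Arid1a* knockout than in WT tumors, led by *E2f8* (0.79), *E2f7* (0.76) and *E2f2* (0.74), with *Rbl2* (-0.36) and *E2f4* (-0.22) lower. With JSH-23 9 were higher and 4 lower (4 and 8 on TPM values), among them *Lin54* (0.51), *Mybl2* (0.43) and *E2f5* (0.41) as the largest rises and *E2f3* (-0.47), *Rbl2* (-0.32) and *Tfdp2* (-0.20) as the largest falls. The interaction was positive for 2, *E2f5* (0.57) and *E2f4* (0.20, 0.00 on TPM values), and negative for 8 (14 on TPM values), led by *E2f8* (-1.01), *E2f2* (-0.71) and *Lin9* (-0.54). The shares higher and lower were 59.1% and 9.09% with vehicle and 40.9% and 18.2% with JSH-23, and those of the interaction 9.09% and 36.4%. Over all genes they were 25% and 25.5%, 23.2% and 23.8% and 20.5% and 17.9%. On TPM values all 13921 genes shifted as well, with 1252 higher and 5793 lower with JSH-23. The interaction was then positive for 1040 and negative for 4536 of them.

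Genes that brake the entry into mitosis were mostly higher in *Arid1a* knockout tumors, 9 of 13 with vehicle (1 lower, the CDK1-inhibiting kinase gene *Wee1*, -0.19) and 9 of 13 with JSH-23 (0 lower in edgeR, 0 at an unadjusted p under 0.05 and 0 with DESeq2, but 5 higher and 2 lower on TPM values). Among those that passed with vehicle, the largest differences were those of the antiproliferative gene *Btg2* (1.38), *Gadd45a* (1.24), a stress gene, and *Cdkn1a* (0.68), which encodes the CDK inhibitor p21. With JSH-23 they were those of *Btg2* (0.93), *Gadd45g* (0.65) and the checkpoint kinase gene *Chek1* (0.57). JSH-23 raised 4 and lowered 6 in WT tumors, with *Gadd45a* (0.80), *Gadd45g* (0.53) and *Cdkn2c* (0.24) up and *Btg2* (-1.20) and *Chek1* (-0.57) down. In *Arid1a* knockout tumors it raised 3, *Cdkn2c* (0.63), *Gadd45g* (0.61) and *Gadd45b* (0.08, but -0.16 on TPM values), and lowered 8, with *Btg2* (-1.65) and *Cdkn1c* (-0.83) among them. The mean CPM of *Chek1* was there 35.8 with vehicle and 26.4 with JSH-23. *Sfn* also passed as lower with JSH-23 in both genotypes but had at most 17 counts in any sample, and no fold is given. The interaction was positive for 1, *Cdkn2c* (0.38), and negative for 2, *Gadd45a* (-1) and *Btg2* (-0.45), but negative for 7 and positive for 0 on TPM values. The shares higher and lower with vehicle were 69.2% and 7.69%, beside 25% and 25.5% of all genes. With JSH-23, 69.2% were higher, beside 23.2%. For JSH-23 they were 30.8% and 46.2% in WT tumors, beside 28.6% and 27.2%, and 23.1% and 61.5% in *Arid1a* knockout tumors, beside 33.4% and 34.4%. For the interaction they were 7.69% and 15.4%, beside 20.5% and 17.9%. On TPM values 1252 of all 13921 genes were higher and 5793 lower between genotypes with JSH-23. The interaction was then positive for 1040 and negative for 4536 of them.

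Nearly all DNA replication genes fell with JSH-23 in both genotypes. Of 41, 1 was higher and 39 were lower with JSH-23 in WT tumors (median -0.68), and 1 higher and 35 lower in *Arid1a* knockout tumors (median -0.47). The higher gene was *Dbf4*, the activator of the CDC7 kinase, in both genotypes (0.61 and 0.71). *Fen1*, a nuclease of lagging-strand synthesis, fell by 1.40 in WT and by 1.48 in *Arid1a* knockout tumors, and *Cdc6*, which loads the replicative helicase, by 1.33 and 1.39. *Rrm2*, a ribonucleotide reductase subunit, fell in WT (-1.20) and *Gins3* in *Arid1a* knockout tumors (-1.20). Both were lower in the other genotype as well. The mean CPM with vehicle and JSH-23 was 538 and 256 for *Rrm2* in *Arid1a* knockout tumors, and 7.98 and 4.47 for *Gins3* in WT tumors. Between genotypes 36 were higher and 1 lower in *Arid1a* knockout tumors with vehicle (median 0.42), led by *Cdc6* (1.29), *Rfc3* (0.95) and *Cdc45* (0.88), with *Dbf4* lower (-0.15). With JSH-23 40 were higher and 0 lower (median 0.60), led by *Cdc6* (1.23), *Mcm4* (0.94) and *Gins1* (0.93). At an unadjusted p under 0.05, 0 were lower there in edgeR, and 0 with DESeq2. The interaction was positive for 16 and negative for 0 (2 at an unadjusted p under 0.05 in edgeR, 0 with DESeq2), but positive for 4 and negative for 11 on TPM values, with *Gins1* (0.67), *Gins2* (0.61), and *Rrm1* and *Mcm5* (0.46 each) the largest. The share lowered by JSH-23 was 95.1% in WT and 85.4% in *Arid1a* knockout tumors, beside 27.2% and 34.4% of all genes. The share higher in *Arid1a* knockout tumors was 87.8% with vehicle and 97.6% with JSH-23, beside 25% and 23.2%, and that with a positive interaction was 39%, beside 20.5%. On TPM values the interaction was positive for 1040 and negative for 4536 of all 13921 genes. Summed over the 41 genes, the level was 3120 and 3110 CPM in WT and 4150 and 4200 CPM in *Arid1a* knockout tumors with vehicle, and 1950 and 1950 CPM in WT and 2860 and 2870 CPM in *Arid1a* knockout tumors with JSH-23.

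Of 8 G1 cyclins and CDKs, 7 were tested. With JSH-23 1 was higher and 5 were lower in WT tumors, and 0 higher and 6 lower in *Arid1a* knockout tumors (0 higher at an unadjusted p under 0.05 in edgeR and 0 with DESeq2). The cyclin D1 gene *Ccnd1* fell by 1.07 and 1.05, while the cyclin E genes differed by genotype: *Ccne1* changed by 0.94 in WT and -0.85 in *Arid1a* knockout tumors, with an interaction of -1.79 (SE 0.23, adjusted p = 1.66e-09, edgeR quasi-likelihood, Benjamini-Hochberg), and *Ccne2* by -0.56 and -1.73. *Cdk6* fell in WT tumors (-0.66), and in *Arid1a* knockout tumors too it was lower with JSH-23 (84.5 and 84.6 CPM) than with vehicle (144 and 148 CPM). With vehicle 4 were higher and 1 lower in *Arid1a* knockout than in WT tumors, *Ccne1* (1.59), *Ccne2* (1.33) and *Cdk2* (0.43) with the largest rises and *Cdk4* lower (-0.14). With JSH-23 4 were higher and 1 lower (0 and 2 on TPM values), *Cdk2* (0.31), *Ccnd1* (0.23) and *Ccnd3* (0.14, but -0.05 on TPM values) with the largest rises and *Cdk6* lower (-0.17). The interaction was positive for 1, *Cdk4* (0.24), and negative for 2, *Ccne1* and *Ccne2* (-1.17), against 0 and 5 on TPM values. The share lowered by JSH-23 was 71.4% in WT and 85.7% in *Arid1a* knockout tumors, beside 27.2% and 34.4% of all genes. The share raised was 14.3% and 0%, beside 28.6% and 33.4%. The share higher in *Arid1a* knockout tumors was 57.1% under either treatment, beside 25% with vehicle and 23.2% with JSH-23, and that with a negative interaction was 28.6%, beside 17.9%. On TPM values 1252 of all 13921 genes were higher and 5793 lower between genotypes with JSH-23. The interaction was then positive for 1040 and negative for 4536.

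**Figure D3:**
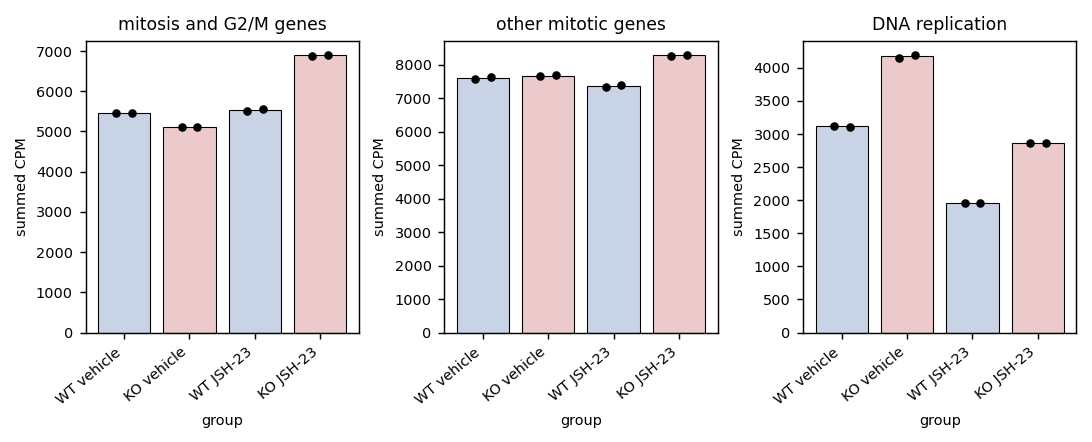
Summed CPM of the 45 mitosis and G2/M genes, of 108 other mitotic genes and of 41 DNA replication genes in each group; dots are the 2 samples and bars their mean. The 45 genes are highest in *Arid1a* knockout tumors with JSH-23 (6870 and 6910 CPM), and the replication genes are highest in *Arid1a* knockout tumors with vehicle (4150 and 4200 CPM). The 108 genes are highest in *Arid1a* knockout tumors with JSH-23 on CPM only (8280 and 8310). Their summed TPM, not drawn, is 4960 and 4940 there and 4880 and 4870 in WT tumors with JSH-23. With vehicle it is 5220 and 5290 in WT and 5360 and 5370 in *Arid1a* knockout tumors.

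The promoters of the set were read for the elements through which late cell-cycle genes are known to be controlled. RefSeq promoter windows of GRCm38.p6, 250 bases before to 50 after a gene's start, were matched for 37 of the 45 genes, with 40 windows in all. *Ccna2*, *Cdc25c*, *Aurkb*, *Incenp*, *Tpx2*, *Kif20a*, *Smc4* and *Foxm1* had no entry. The core of the CHR element was searched as TTTGAA or TTCGAA and the CCAAT box as CCAAT, on both strands, and matches may share bases. A CHR core was found in 32 of the 40 windows (80%), beside 19.2% of all 32851 windows in the table, and a CCAAT box in 32 (80%), beside 37.4%. Both were present in 29 windows (72.5%), beside 7.52% of all, and at least 2 CCAAT boxes in 20 (50%), beside 11.7%. Of 38 windows of DNA replication genes, 9 had a CHR core (23.7%), 21 a CCAAT box (55.3%), 5 both (13.2%) and 12 at least 2 CCAAT boxes (31.6%). A match is a string of letters and was not tested as a binding site.

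The 250 bases upstream of the start are shown for the genes with the largest JSH-23 effects in *Arid1a* knockout tumors or the largest interactions, and for *Spc25* and *Smc2*, whose interaction was negative. Capitals mark CHR cores and CCAAT boxes, which read TTCAAA and ATTGG where they lie on the opposite strand. In the downstream 50 bases, which are not shown, *Plk1*, *Aurka*, *Spc25* and *Smc2* each had 1 CHR core. *Ccnb1* had none in its window.
*Cdc20*, chr4:118437344-118437593, minus strand: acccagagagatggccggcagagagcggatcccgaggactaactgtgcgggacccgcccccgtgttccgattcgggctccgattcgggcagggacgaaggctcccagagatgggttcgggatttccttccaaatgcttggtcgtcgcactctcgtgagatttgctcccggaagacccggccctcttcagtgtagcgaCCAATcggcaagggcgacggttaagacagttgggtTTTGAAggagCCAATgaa
*Ube2c*, chr2:164769679-164769928, plus strand: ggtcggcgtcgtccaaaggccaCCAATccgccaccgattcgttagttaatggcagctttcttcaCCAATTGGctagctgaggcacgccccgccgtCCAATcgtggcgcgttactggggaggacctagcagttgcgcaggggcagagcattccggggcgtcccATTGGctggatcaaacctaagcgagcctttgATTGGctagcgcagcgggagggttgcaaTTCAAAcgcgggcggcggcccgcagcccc
*Plk1*, chr7:122159185-122159434, plus strand: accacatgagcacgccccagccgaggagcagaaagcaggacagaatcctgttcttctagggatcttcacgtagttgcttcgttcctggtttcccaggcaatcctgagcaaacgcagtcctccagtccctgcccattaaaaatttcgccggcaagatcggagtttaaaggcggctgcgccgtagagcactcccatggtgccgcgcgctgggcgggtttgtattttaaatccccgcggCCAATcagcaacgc
*Aurka*, chr2:172370571-172370820, minus strand: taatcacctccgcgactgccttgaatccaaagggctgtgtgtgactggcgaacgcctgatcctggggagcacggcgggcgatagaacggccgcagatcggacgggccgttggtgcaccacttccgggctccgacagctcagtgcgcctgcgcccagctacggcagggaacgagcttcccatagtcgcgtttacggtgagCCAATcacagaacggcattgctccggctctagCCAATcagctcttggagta
*Ccnb1*, chr13:100786487-100786736, minus strand: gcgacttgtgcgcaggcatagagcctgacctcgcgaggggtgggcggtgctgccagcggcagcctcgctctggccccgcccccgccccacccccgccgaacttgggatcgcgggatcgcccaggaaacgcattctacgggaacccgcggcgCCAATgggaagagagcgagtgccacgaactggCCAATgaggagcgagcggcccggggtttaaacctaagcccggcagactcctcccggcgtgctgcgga
*Spc25*, chr2:69206214-69206463, minus strand: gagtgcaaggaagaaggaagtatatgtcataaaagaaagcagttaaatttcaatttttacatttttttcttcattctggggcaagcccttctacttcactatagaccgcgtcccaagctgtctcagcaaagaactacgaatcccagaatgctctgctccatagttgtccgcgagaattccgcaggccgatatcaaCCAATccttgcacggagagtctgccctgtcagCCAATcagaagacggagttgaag
*Smc2*, chr4:52438971-52439220, plus strand: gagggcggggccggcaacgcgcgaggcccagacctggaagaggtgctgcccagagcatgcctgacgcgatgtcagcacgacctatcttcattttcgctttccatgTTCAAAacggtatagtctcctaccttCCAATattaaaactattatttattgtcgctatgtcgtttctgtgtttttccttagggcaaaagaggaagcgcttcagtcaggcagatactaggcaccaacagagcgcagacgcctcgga
CCAAT boxes stood upstream of genes with either direction of JSH-23 effect in *Arid1a* knockout tumors. In the stretch shown, the raised genes had 2 CCAAT boxes and 1 CHR core (*Cdc20*), 6 and 1 (*Ube2c*), 1 and 0 (*Plk1*), and 2 and 0 (*Aurka* and *Ccnb1*). The lowered genes had 2 and 0 (*Spc25*) and 1 and 1 (*Smc2*). A difference between raised and lowered genes was not tested.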

How the data were processed

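RNA sequencing of total RNA from 8 samples of sorted tumor cells was read from raw counts per gene and a table of TPM, both deposited by the authors. The processing notes of the submitters name HISAT2, HTSeq and DESeq2 on build mm10, whereas the methods of the paper name TopHat2 and HTSeq-count. Genes that passed edgeR's filterByExpr (13921 of 39089) were scaled by TMM (factors 0.949 to 1.03) and fitted as 4 group means with edgeR 4.0.16 in R 4.3.3, by the quasi-likelihood test with Benjamini-Hochberg adjustment over all genes tested. A gene was called at an adjusted p under 0.05, and a second criterion took a 1.5-fold change and an unadjusted p under 0.05. The 5 comparisons were *Arid1a* knockout against WT under each treatment, JSH-23 against vehicle per genotype, and their interaction. Scaled to the total counts without TMM factors, 3 counts equal 0.137 to 0.183 CPM in these libraries, a floor that covers counting error only.

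The 45 genes and the other lists were chosen with earlier results of these data known. Values in every sample are given for the gene of highest mean TPM in each role and for the 5 largest called changes in each comparison, and from other lists up to 3 genes per direction and comparison are named. The alternatives, 19 in all, used DESeq2 1.42.0, limma 3.58.1 on log2 TPM with a pseudocount of 1 or 0.1, other filters and scalings, a replicate block, the compared groups alone, a preset spread, a test against 1.5-fold, and each sample left out. The pipeline was tested on simulated data.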

Additional observations from a re-analysis of the deposited data

Results flagged for a closer look

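Levels responded differently to JSH-23 in *Arid1a* knockout and in WT tumors for 39 of the 45 mitosis and G2/M genes, and the difference itself was tested as an interaction term in edgeR, at an adjusted p under 0.05 over all genes tested. The values that follow are the log2 JSH-23 effect in *Arid1a* knockout tumors minus that in WT tumors, with 2 samples in each group, and 37 were positive and 2 negative. Over all genes tested, 20.5% were positive and 17.9% negative. With the biological coefficient of variation preset to 0.1 in edgeR, 11 of the 45 were positive and 0 negative (18 and 1 at an unadjusted p under 0.05). At 0.2 both counts were 0 (4 and 0 at an unadjusted p under 0.05), while DESeq2, run without a preset spread, gave 34 and 1. Of all 13921 genes tested in edgeR, 252 were positive and 495 negative at 0.1, and 13 and 34 at 0.2.

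Among genes of CDK1 and its activators the difference was 0.39 for *Cdk1*, 0.38 for *Ccna2*, 0.76 for *Ccnb1*, 0.49 for *Ccnb2* and 0.73 for *Cdc25c*. For the mitotic kinases it was 0.90 for *Plk1*, 0.85 for *Aurka* and 0.29 for *Nek2*. Genes of the spindle assembly checkpoint differed by 0.35 for *Bub1*, 0.69 for *Bub1b*, 0.27 for *Bub3* and 0.31 for *Ttk*. Among genes of centromeres and kinetochores the difference was 0.50 for *Cenpa*, 0.56 for *Cenpf* and -0.47 for *Spc25*. For the chromosomal passenger complex it was 0.26 for *Aurkb*, 0.23 for *Birc5*, 0.37 for *Incenp* and 0.30 for *Cdca8*. Genes of spindle motors and assembly differed by 0.31 for *Kif11*, 0.41 for *Kif2c*, 0.19 for *Kif4* (negative on TPM values) and 0.44 for *Tpx2*. Among genes of the central spindle and cytokinesis the difference was 0.68 for *Kif20a*, 0.18 for *Kif23* (negative on TPM values), 0.55 for *Prc1*, 0.74 for *Anln*, 0.46 for *Ect2* and 0.21 for *Racgap1*. For the anaphase-promoting complex and separase it was 1.25 for *Cdc20*, 0.86 for *Ube2c*, 0.25 for *Pttg1* (a call lost without any 1 of the 8 samples) and 0.16 for *Espl1* (negative on TPM values). Genes of mitotic chromosome structure differed by 0.63 for *Top2a*, 0.16 for *Mki67* (negative on TPM values), -0.15 for *Smc2*, 0.38 for *Smc4*, 0.71 for *Ncapg* and 0.49 for *Ncaph*. On TPM values the call was lost for *Cdk1* (0.18), *Nek2* (0.09), *Bub3* (0.07), *Ttk* (0.11), *Aurkb* (0.06), *Birc5* (0.03), *Cdca8* (0.10), *Kif11* (0.11), *Kif2c* (0.20), *Racgap1* (0.02) and *Pttg1* (0.05). The remaining 6 genes (*Cdc25b*, *Mad2l1*, *Cenpe*, *Ndc80*, *Nuf2* and *Foxm1*) did not pass the test of the difference.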

How the results depend on the processing

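Of 19 alternatives, those on scaling, on the spread between samples and on the tested fold moved the results most. On TPM values (either pseudocount) the genes higher and lower were 20 and 6 for *Arid1a* knockout against WT with JSH-23 (median 0.07), 23 and 11 for JSH-23 in *Arid1a* knockout tumors (0.11), and 22 higher for the interaction (0.17), and the median for JSH-23 in WT tumors was -0.04. Without TMM factors the medians were -0.02 for *Arid1a* knockout against WT with vehicle, 0.19 with JSH-23, 0.23 for JSH-23 in *Arid1a* knockout tumors and 0.26 for the interaction, with 1 gene lower in *Arid1a* knockout than in WT tumors with JSH-23 and 7 lower with JSH-23 in *Arid1a* knockout tumors. With at least 10 counts in every sample the median JSH-23 effect was -0.02 in WT and 0.32 in *Arid1a* knockout tumors.

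At a biological coefficient of variation of 0.1, 4 genes were higher and 8 lower in *Arid1a* knockout tumors with vehicle, 11 higher with JSH-23, 1 higher and 2 lower with JSH-23 in WT tumors, 23 higher in *Arid1a* knockout tumors, and 11 positive and 0 negative for the interaction. At 0.2 these were 0 and 1, 0, 0 and 0, 9 higher and 0 lower, and 0 and 0. Tested against 1.5-fold with glmTreat they were 0 and 4, 0, 0 and 0, 12 and 1, and 6 and 0. Of all 13921 genes, those higher and lower in the same order were 1563 and 1306, 845 and 1049, 1585 and 2042, 2670 and 3348, and 252 and 495 at 0.1. At 0.2 they were 397 and 217, 124 and 134, 205 and 604, 566 and 1578, and 13 and 34. With glmTreat they were 411 and 271, 151 and 161, 224 and 571, 665 and 1479, and 82 and 142. DESeq2 left 1 negative interaction, and the fits without a sample 1 to 2. The counts of 0 come from edgeR. Without each sample in turn, where the lone sample is assumed to vary like the other groups, the median ran from -0.07 to -0.03 (genotypes, vehicle), -0.01 to 0.03 (JSH-23 in WT), 0.34 to 0.38 (JSH-23 in *Arid1a* knockout) and 0.33 to 0.39 (interaction).

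Directions turned as follows on TPM values, among genes called on counts or given in every sample. For *Arid1a* knockout against WT with JSH-23, *Ube2c* was -0.11, *Cdc20* -0.07, *Plk1* -0.07, *Nek2* -0.03, *Bub3* -0.04, *Ndc80* -0.01, *Kif20a* -0.03 and *Ncaph* -0.06. For JSH-23 in WT tumors *Ccnb2* was -0.02 (-0.02 to 0.07 without a sample), *Bub1b* 0 and *Ccnb1* 0, and *Racgap1* ran from -0.07 to 0.03 without a sample. For JSH-23 in *Arid1a* knockout tumors *Aurkb* was -0.14, *Birc5* -0.18, *Racgap1* -0.05, *Cdk1* -0.09, *Ndc80* -0.13, *Kif4* -0.08 and *Kif23* -0.10, and without TMM factors *Aurkb* -0.02 and *Birc5* -0.06. For the interaction *Kif4* was -0.01, *Kif23* -0.02, *Espl1* -0.03 and *Mki67* -0.03. Other genes, not called on counts, turned as well. For *Arid1a* knockout against WT with JSH-23 these included *Cenpf* (-0.17 and called lower), *Cenpe* (-0.13), *Kif23* (-0.09), *Pttg1* (-0.08), *Mad2l1* (-0.03) and *Nuf2* (-0.03). *Mad2l1* was -0.16 for JSH-23 in *Arid1a* knockout tumors. For the interaction *Mad2l1* was -0.09, *Cenpe* -0.12 and *Ndc80* -0.10. The interaction of *Foxm1* was -0.17 or -0.18 on TPM values, -0.08 without TMM factors and -0.03 to 0.07 without a sample. *Tpx2* in *Arid1a* knockout against WT tumors with vehicle was 0.02 without TMM factors, 0 with at least 10 counts and -0.04 to 0.01 without a sample. The cause of these changes was not tested, except that a larger preset spread or a tested fold lowers the calls by construction.

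Deviations from the group mean in samples that share a replicate number were unrelated between groups (r from -0.00723 to 0.0263 across 9194 genes, which are not independent), and with replicate number as a block 11 genes were higher and 19 lower for *Arid1a* knockout against WT with vehicle, with 36 and 0, 14 and 13, 36 and 3, and 37 and 2 in the other comparisons. With 2 samples per group of unstated origin, variation between animals cannot be estimated.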
